A study of Mus musculus with 12 samples.

Results

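The genes described here encode the subunits of the respiratory chain and the ATP synthase, measured in mouse striatum. Members were the genes of the array's probe table whose symbols begin with Ndufa, Ndufb, Ndufc, Ndufs or Ndufv (the assembly factors named Ndufaf left out), Uqcr, Cox4, Cox5, Cox6, Cox7, Cox8 or Atp5, together with Sdha, Sdhb, Sdhc, Sdhd, Cyc1 and Cycs. The rule reads symbols alone. Of 92 such symbols, 84 had a probe set of their own, out of 18193 genes on the array with one. They comprised 36 genes of complex I, 4 of complex II, 9 of complex III, 17 of complex IV and 17 of the ATP synthase, and cytochrome c. The other 8 symbols (Ndufa11, Ndufa11b, Ndufab1-ps, Ndufb4b, Ndufb4c, Ndufs5-ps, Ndufs6 and Ndufs6b) were covered only by probe sets that several genes share.

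Striatal RNA of 12 C57BL/6 mice was hybridised to Affymetrix Mouse Genome 430 2.0 arrays, 1 mouse to an array. There were 4 groups of 3 mice, wild type and Q92 at 3 months (100 to 103 days) and at 18 months. Q92 mice are homozygous for the HdhQ92 allele, in which a stretch of 92 CAG repeats from the first exon of the human Huntington's disease gene was placed in the mouse's own gene (now Htt). The knock-in is expressed from the endogenous locus, in every cell that uses Htt and not in 1 cell type. The older wild-type mice were 596 to 604 days of age and the older Q92 mice 567 to 596 days, so age in days partly followed genotype. Each group held 2 females and 1 male, except the wild-type group at 3 months with 1 female and 2 males. The study compared Q92 with wild-type striatum at both ages. Mice are named by group and animal number, as in Q92_18m_66.

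Mitochondria pass electrons from NADH through complex I, or from succinate through complex II, to ubiquinone, complex III, cytochrome c and complex IV, where oxygen is reduced. Complexes I, III and IV pump protons across the inner membrane, and the ATP synthase lets them return to make ATP. Most subunits are encoded in the nucleus, and a few core subunits of complexes I, III, IV and the ATP synthase are encoded in mitochondrial DNA. The striatum relies heavily on this pathway, and inhibitors of complex II injure it selectively in rodents and primates. Genes encoded in mitochondrial DNA had 0 probe sets of their own in the probe table, so the values below concern nuclear genes.

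NRF1, factors of the ETS family (NRF2, also called GABP) and the oestrogen-related receptors are known to act on many nuclear subunit genes. RefSeq promoters of GRCm38.p6 were matched to 68 of the 84 members, and 4 words were looked for on both strands in the 250 bases before the gene's start. The word CGCATGCG of NRF1 was in 7 of 68 members (10.3%) and in 2.74% of the 14369 measured genes with a promoter. The ETS word CCGGAAG was in 12 members (17.6%) and 11.8% of measured genes, and the oestrogen-related receptor word CAAGGTCA in 3 members (4.41%) and 1.45%. The word TATAAA was in 7 members (10.3%) and in 10.5% of measured genes. Of the 68 promoters, 23 held at least 1 of the 4 words, and no 2 words overlapped. Shown are 5 of the 7 windows with the NRF1 word, chosen to cover complexes I and IV, cytochrome c and the ATP synthase, the others being in Atp5l and Atp5j. After them come 3 windows with the ETS word, from genes of complexes I, II and III. Capitals mark the word, and the ETS word is on the opposite strand in these windows (CTTCCGG). All 8 genes lie on the minus strand, and each sequence of 60 bases is read in the direction of its gene. With the NRF1 word, Ndufa8 (an accessory subunit of complex I) is at chr2:36049339-36049398, Cycs (cytochrome c) at chr6:50566597-50566656, Cox6a1 (complex IV) at chr5:115349086-115349145, Atp5k (subunit e of the ATP synthase) at chr5:108434415-108434474 and Atp5g2 (its subunit c) at chr15:102671055-102671114. With the ETS word, Ndufb6 (complex I) is at chr4:40279612-40279671, Sdhd (complex II) at chr9:50603862-50603921 and Uqcrh (complex III) at chr4:116075071-116075130.
Ndufa8: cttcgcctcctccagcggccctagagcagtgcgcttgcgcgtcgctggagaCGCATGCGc
Cycs: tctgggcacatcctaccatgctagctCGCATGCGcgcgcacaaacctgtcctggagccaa
Cox6a1: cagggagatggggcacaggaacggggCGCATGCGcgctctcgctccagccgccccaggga
Atp5k: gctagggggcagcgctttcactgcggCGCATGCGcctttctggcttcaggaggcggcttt
Atp5g2: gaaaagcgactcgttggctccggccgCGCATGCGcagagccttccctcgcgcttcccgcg
Ndufb6: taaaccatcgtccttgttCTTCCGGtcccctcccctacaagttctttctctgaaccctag
Sdhd: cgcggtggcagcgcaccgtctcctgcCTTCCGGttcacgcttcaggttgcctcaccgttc
Uqcrh: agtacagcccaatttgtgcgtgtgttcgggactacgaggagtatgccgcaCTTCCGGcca
The members without an entry in the promoter table were Ndufa2, Ndufa4l2, Ndufb9, Ndufs1, Sdhc, Cyc1, Uqcrb, Uqcrc2, Uqcrq, Cox4i1, Cox4i2, Cox6a2, Cox6c, Cox8c, Atp5a1 and Atp5mpl. A match describes the letters in this window and is not evidence of binding.

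The values are log2 signals, each gene was taken at its brightest probe set, and all differences are on the log2 scale. Signals of different probe sets are not compared as levels, because probes differ in their response. Of the 84 members, 80 had a mean above the 40th percentile of all probe sets (log2 4.27). The exceptions were Ndufb4, Cox4i2, Cox7a1 and Cox7b2, and their small values carry more noise. The median SD within groups was 0.11 for members and 0.15 for all genes. The median SE of a difference between groups was 0.10.

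Transcripts of the respiratory chain and the ATP synthase showed no member past an adjusted p of 0.05 in any of 5 comparisons (limma, adjusted over 45037 probe sets). For Q92 against wild type, 0 of 84 members passed at 18 months, where 0.0533% of probe sets did, and 0 passed at 3 months, where 0.0111% did. For the difference between the 2 genotype differences (18 minus 3 months), 0 members passed and 0% of probe sets did. Between 3 and 18 months 0 members passed in wild-type mice (0.0511% of probe sets) and 0 in Q92 mice (0.206%). At an unadjusted p under 0.05, 2 members were higher and 0 lower in Q92 mice at 18 months, where 3.07% of genes were higher and 4.95% lower. At 3 months 0 members were past it in either direction, against 0.786% of genes higher and 1.48% lower. For the change of the difference with age the counts were 4 up and 0 down (2.52% and 3.28% of genes). In wild-type mice 1 member was higher and 2 lower with age (6.52% and 4.45% of genes), and in Q92 mice 9 were higher and 1 lower (7.42% and 5.03%).

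The intervals give the range of differences that the fitted values leave possible. The size of change needed to pass the adjusted threshold was not calculated. At 18 months the 95% interval of the genotype difference, not adjusted for the number of genes, left out a 1.5-fold change in either direction for 80 of 84 members (95.2%, against 87.0% of all genes). At 3 months it did so for 80 members as well, against 92.3% of all genes. For the change of the difference with age it did so for 66 members (78.6%, against 65.5% of all genes), and the median SE of that contrast was 0.14.

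Small differences in Q92 mice at 18 months leaned to higher values. The difference was above 0 for 63 of 84 members (75%), against 49.6% of all genes, and its median was 0.06 against -0.00136 for all genes. Each complex had a median above 0, at 0.07 for complex I, 0.11 for complex II, 0.07 for complex III, 0.04 for complex IV and 0.06 for the ATP synthase, and cytochrome c stood at 0.06. Single members ran from -0.16 (Ndufb4, at a dim probe set) to 0.63 (Ndufa12, whose probe sets disagreed, as described below). These members were measured in the same 3 against 3 mice, so their shared lean is not a count of independent observations.

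**Figure D1:**
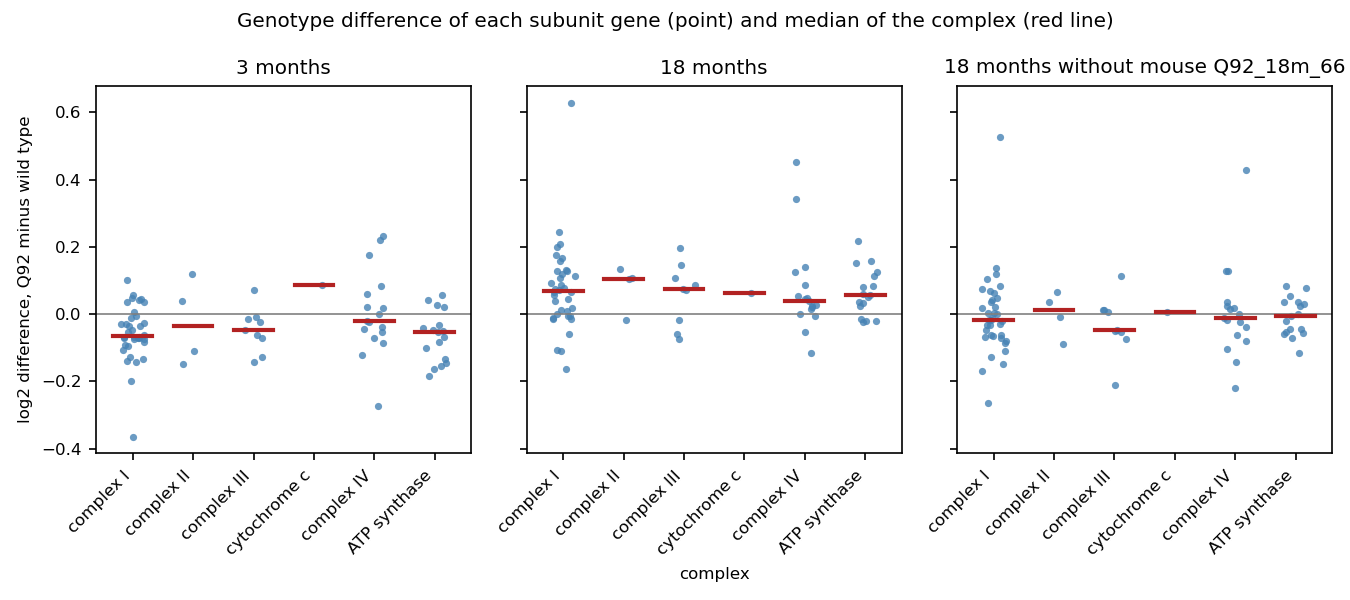
Log2 difference, Q92 minus wild type, of each of the 84 members (points, at the brightest probe set) by complex, with red lines at the median of the complex, at 3 months, at 18 months, and at 18 months without mouse Q92_18m_66. Points above 0 number 23 of 84 at 3 months, 63 at 18 months and 38 without that mouse.

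The lean at 18 months rested on 1 of the 3 Q92 mice. In mouse Q92_18m_66 the members lay at a median of 0.23 above their own mean of 12 mice, while the other 11 mice lay between -0.07 and 0.03. In the other Q92 mice of that age the median was 0.01 (Q92_18m_11) and -0.04 (Q92_18m_25). In Q92_18m_66, 79 of 84 members were above their mean, and it held the highest value of 12 mice for 61 members (72.6%), against 16.5% of all genes. It was highest for 26 of 36 genes of complex I, 4 of 4 of complex II, 8 of 9 of complex III, 10 of 17 of complex IV and 13 of 17 of the ATP synthase, but not for cytochrome c. The median offset in that mouse was 0.23 for complex I, 0.26 for complex II, 0.28 for complex III, 0.17 for complex IV and 0.22 for the ATP synthase, against 0.02 for all genes. Without that mouse 38 of 84 members were above 0 at 18 months and the median difference was -0.01. Leaving out Q92_18m_25 or Q92_18m_11 instead gave medians of 0.11 and 0.10.

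**Figure D2:**
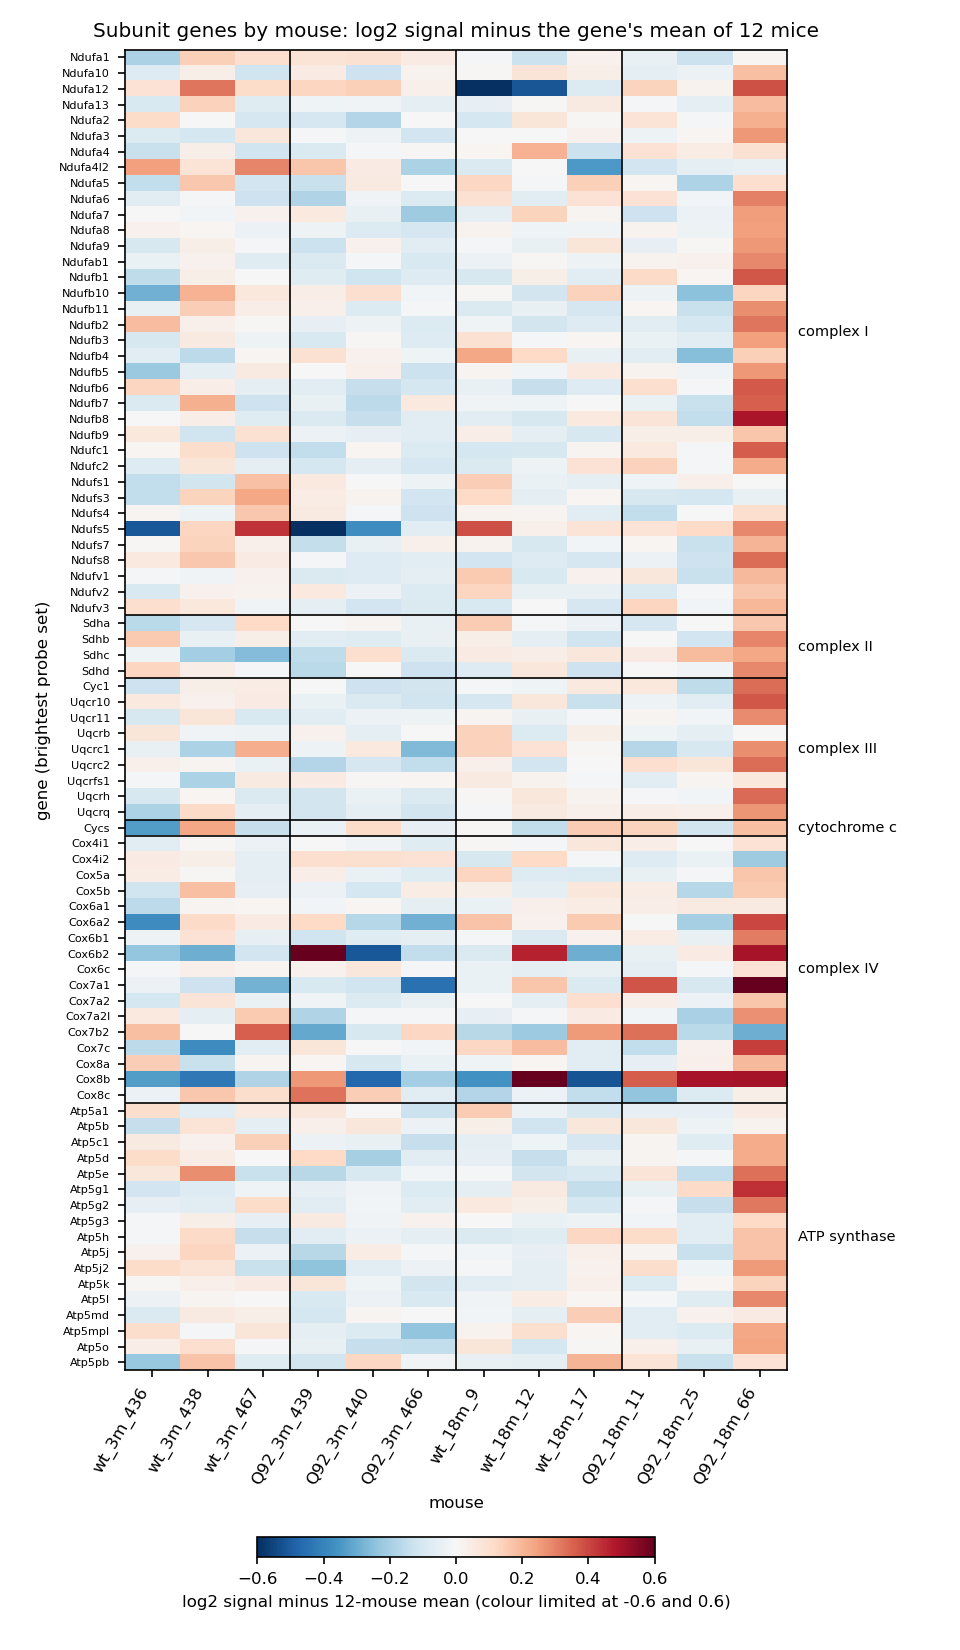
Log2 signal of each of the 84 members in each of the 12 mice, as the difference from that gene's mean of 12 mice (colour), with genes in rows by complex and mice in columns by group. The last column, mouse Q92_18m_66, holds the highest of 12 values for 61 members.

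That mouse also stood apart in other genes. In it the genes of 3 other lists were shifted by like amounts, at a median of 0.20 for 48 assembly factors, 0.22 for 76 mitochondrial ribosomal proteins and 0.20 for 37 subunits of the constitutive proteasome. The proteasome is not part of the respiratory chain and was listed for comparison. Enzymes of the citric acid cycle (15 genes without the Sdh genes) were at 0.13, carriers and kinases that move ADP, phosphate and phosphocreatine (9 genes) at 0.06, regulators of mitochondrial biogenesis (14 genes) at 0.06 and glycolysis (13 genes) at -0.02. Markers of striatal projection neurons (11 measured of 12, 10 of them above the 90th percentile of signal) had a mean offset of -1.08 in Q92_18m_66, and -0.62 and -0.36 in the other Q92 mice of 18 months. Their summed log2 signal ran from 101.1 to 109.0 in Q92 and from 113.9 to 115.8 in wild-type mice of that age. At 3 months the sums ran from 114.8 to 117.7 in Q92 and from 113.7 to 118.0 in wild-type mice.

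Markers of thalamic and pallidal neurons (8 of 8 measured, 2 above the 90th percentile and 1 at or below the 40th) had their highest offset of 12 mice in Q92_18m_66, at 0.91. The other Q92 mice of 18 months were at -0.79 and -0.51, and the wild-type mice of that age at -0.42, 0.70 and 0.60. Cortical excitatory neuron markers (9 of 10 measured) stood at -0.47 in Q92_18m_66, and at 0.87 and 0.88 in its group mates. Markers common to neurons (9 of 9 measured, all above the 90th percentile) were at 0.04, those of astrocytes (9 of 9) at 0.19 and those of microglia (8 of 9) at 0.52. The group mates of Q92_18m_66 stood at -0.23 and -0.12 for astrocytes and at -0.11 and -0.14 for microglia. The wild-type mice of 18 months stood at 0.16, 0.25 and 0.26 for astrocytes and at 0.13, 0.25 and 0.58 for microglia. The array of Q92_18m_66 had a mean correlation with the others of 0.988, next to lowest, and the highest signal of a ribosomal RNA control probe set (8.01, range 6.51 to 8.01). Mouse Q92_3m_466 was near it at that control (7.90), with a member median of -0.07. The array of lowest mean correlation, wt_3m_467 (0.987), had a member median of -0.00627. For the array of Q92_18m_66 a further control was within range. Its difference between the 3' and 5' probe sets of beta-actin was 0.81, within the range of 0.70 to 0.99. The part of tissue composition, RNA content or array in the higher signals of Q92_18m_66 was not tested. In bulk tissue, fewer cells of a type and less RNA per cell cannot be told apart.

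**Figure D3:**
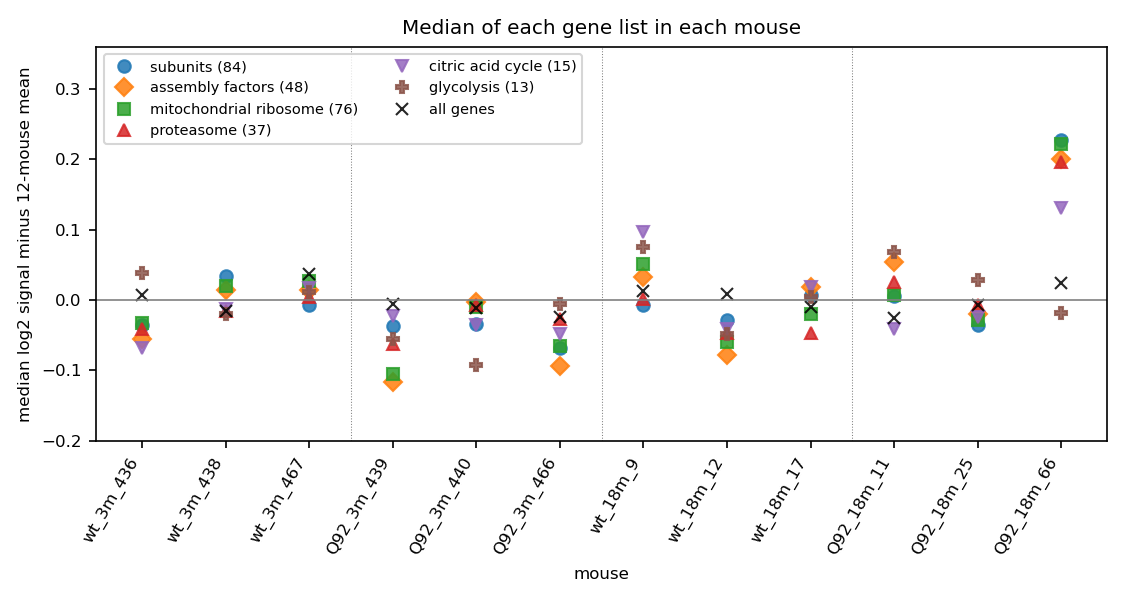
Median offset in log2 signal from the 12-mouse mean, by mouse, for the 84 members and for other gene lists. Mouse Q92_18m_66 stands at 0.23 for the members, 0.20 for assembly factors, 0.22 for mitochondrial ribosomal proteins, 0.20 for the proteasome and -0.02 for glycolysis.

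In 5 members the 3 Q92 values lay entirely above the 3 wild-type values at 18 months (6.50% of genes did), and in 0 members entirely below (7.51% of genes). None of the 5 passed the test. They were Ndufa12, Ndufb6 and Ndufab1 of complex I, Uqcrc2 of complex III and Atp5d of the ATP synthase.

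Ndufa12 is an accessory subunit of complex I and a paralogue of an assembly factor of that complex. Its brightest probe set (1455806_x_at) read 11.23, 11.47 and 11.25 in wild-type and 11.27, 11.29 and 11.18 in Q92 mice at 3 months, and 10.39, 10.63 and 11.06 in wild-type and 11.28, 11.17 and 11.53 in Q92 mice at 18 months. The 3 wild-type mice of 18 months lay below every other mouse. The genotype difference at 18 months was 0.63 (SE 0.15, adjusted p = 0.220), a fold change of 1.55 with a 95% interval on the log2 scale of 0.30 to 0.96. Without Q92_18m_66 it was 0.53.

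Other probe sets of Ndufa12 did not follow the brightest one. The second (1433513_x_at) read 10.99, 11.19 and 11.04 in wild-type and 11.10, 11.04 and 10.98 in Q92 mice at 3 months, and 11.001, 11.17 and 11.05 in wild-type and 11.01, 10.97 and 11.30 in Q92 mice at 18 months, a genotype difference at 18 months of 0.02 (SE 0.10, adjusted p = 0.987). The third (1418814_s_at) read 10.21, 10.45 and 10.43 in wild-type and 10.30, 10.45 and 10.28 in Q92 mice at 3 months, and 10.74, 10.59 and 10.65 in wild-type and 10.32, 10.24 and 10.58 in Q92 mice at 18 months. There the 3 wild-type mice of 18 months lay above every other mouse, and the genotype difference was -0.28 (SE 0.11, adjusted p = 0.547). The dimmest of the 4 (1425919_at) gave -0.29 (SE 0.16, adjusted p = 0.706). The mean of the 4 probe sets gave a difference of 0.02. Suffixes x and s mark designs whose probes may also match other transcripts, and which probe set best reflects Ndufa12 was not tested.

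**Figure D4:**
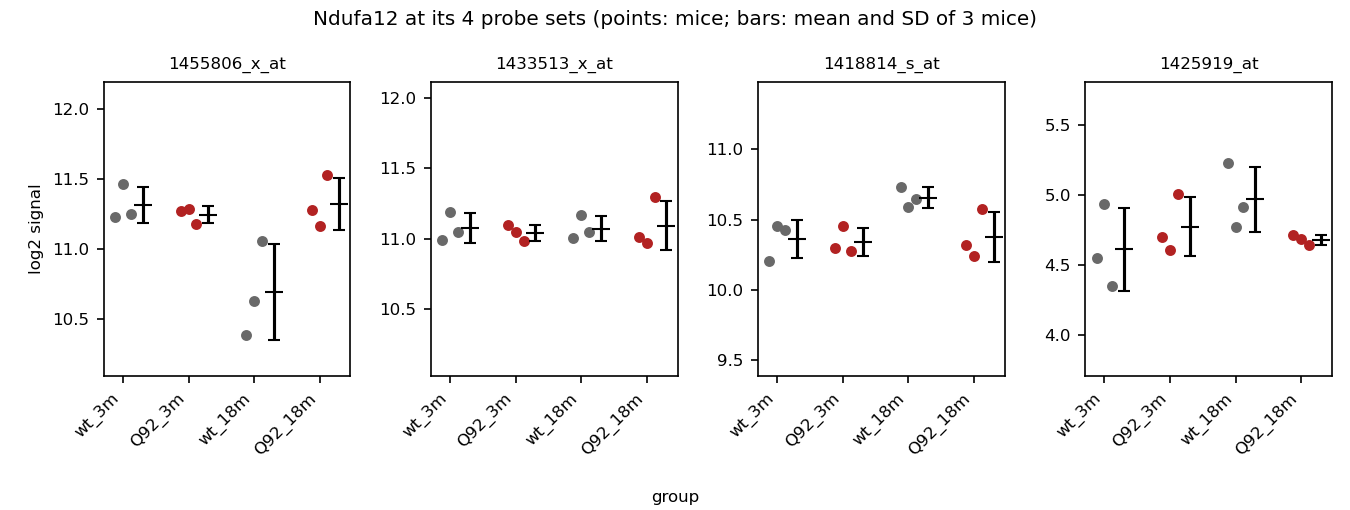
Log2 signal of the 4 Ndufa12 probe sets in each of the 12 mice (points), with bars at the mean and SD of the 3 mice of a group. The brightest is lowest in wild-type mice at 18 months (10.39, 10.63 and 11.06), where the third is highest.

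Ndufb6, an accessory subunit of the membrane arm of complex I, read 10.15, 10.06 and 9.96 in wild-type and 9.95, 9.88 and 9.91 in Q92 mice at 3 months, and 9.97, 9.88 and 9.94 in wild-type and 10.12, 10.01 and 10.39 in Q92 mice at 18 months. The Q92 mice lay below every wild-type mouse at 3 months and above every one at 18 months. The difference was -0.14 (SE 0.10, adjusted p = 1.00) at 3 months and 0.24 (SE 0.10, adjusted p = 0.586) at 18 months, and 0.14 at 18 months without Q92_18m_66. Uqcrc2, a core protein of complex III, showed the same order of groups. It read 10.40, 10.38 and 10.32 in wild-type and 10.19, 10.27 and 10.22 in Q92 mice at 3 months, and 10.40, 10.25 and 10.36 in wild-type and 10.47, 10.44 and 10.70 in Q92 mice at 18 months. Its difference was -0.14 (SE 0.09, adjusted p = 1.00) at 3 months and 0.20 (SE 0.09, adjusted p = 0.632) at 18 months, and 0.11 without that mouse. The change of the difference with age was 0.38 (SE 0.14, adjusted p = 0.946) for Ndufb6 and 0.34 (SE 0.13, adjusted p = 0.946) for Uqcrc2, and neither passed.

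Ndufab1, the mitochondrial acyl carrier protein that is also a subunit of complex I, read 10.60, 10.65 and 10.61 in wild-type and 10.66, 10.66 and 10.93 in Q92 mice at 18 months. Atp5d, the delta subunit in the central stalk of the ATP synthase, read 11.27, 11.18 and 11.27 in wild-type and 11.33, 11.30 and 11.54 in Q92 mice. In both genes the groups were separated by little and the highest value was that of Q92_18m_66. Their differences were 0.13 (SE 0.09, adjusted p = 0.790) and 0.15 (SE 0.10, adjusted p = 0.781), and without that mouse 0.04 and 0.08.

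Young Q92 mice leaned the other way. At 3 months 61 of 84 members were lower than in wild-type mice and 23 higher (27.4%, against 42.6% of all genes), with a median of -0.05 against -0.02 for all genes. Complex medians were -0.07 for complex I, -0.04 for complex II, -0.05 for complex III, -0.02 for complex IV and -0.05 for the ATP synthase. Without wt_3m_438 the median was -0.02, and 36 members were higher. Groups did not overlap in 12 members that were lower in Q92 mice (4.34% of genes) and in 2 that were higher (2.30% of genes).

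The 12 lower members came from all 5 complexes, and their differences were small. In complex I they were Ndufs8, which carries iron-sulfur clusters (-0.14), the NADH-binding module's Ndufv1 (-0.07) and Ndufv3 (-0.13), and the accessory subunits Ndufb6 (-0.14) and Ndufb2 (-0.13). In complex II there was Sdhb (-0.11), and in complex III Uqcrc2 (-0.14) and Uqcr10 (-0.13). Complex IV had Cox6b1 (-0.08). The ATP synthase had its gamma subunit Atp5c1 (-0.15), the stalk subunit Atp5o (-0.15), which confers oligomycin sensitivity, and the small membrane subunit Atp5mpl (-0.18). Over the mean of each gene's probe sets, some of these differences were nearer 0, at -0.03 for Atp5c1, -0.04 for Uqcrc2, -0.08 for Atp5o and -0.07 for Ndufs8.

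Signals behind the larger of these were close together. Atp5mpl read 10.57, 10.46 and 10.54 in wild-type and 10.41, 10.38 and 10.23 in Q92 mice at 3 months. Atp5o read 10.97, 11.03 and 10.93 in wild-type and 10.89, 10.80 and 10.78 in Q92 mice, and Atp5c1 read 11.40, 11.37 and 11.48 in wild-type and 11.31, 11.30 and 11.20 in Q92 mice. In each gene the gap between the groups was smaller than the median SE of a difference (0.10). The differences were -0.18 (SE 0.10, adjusted p = 1.00), -0.15 (SE 0.09, adjusted p = 1.00) and -0.15 (SE 0.09, adjusted p = 1.00).

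Cox7c, a small subunit of complex IV, was the larger of the 2 members higher in Q92 mice at 3 months. Its brightest probe set is of modest signal and read 5.13, 4.91 and 5.22 in wild-type and 5.36, 5.29 and 5.27 in Q92 mice, a difference of 0.22 (SE 0.14, adjusted p = 1.00). Over the mean of its 2 probe sets the difference was 0.14. Cox4i2 was the other, at 0.08, with signals near the 40th percentile.

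Over all members the genotype difference leaned upward with age, and this lean was given no test. The change was above 0 for 64 of 84 members (76.2%, against 54.3% of genes), with a median of 0.11 against 0.02 for all genes. The 4 members at an unadjusted p under 0.05 were Ndufa12 (0.70), Ndufb6 (0.38), Uqcrc2 (0.34) and Ndufv3 (0.30), and the smallest adjusted p was 0.935. For Ndufa12, with its conflicting probe sets, the change came as near 0 as 0.0108 in the alternative runs described below. Without Q92_18m_66 the median was 0.01 and 48 members were above 0, and without Q92_18m_25 the median was 0.17. This comparison uses the same 12 mice as the comparisons at each age and is not separate evidence.

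In wild-type mice the members showed no shared lean between 3 and 18 months. Exactly 42 of 84 were higher at 18 months (50%, against 47.3% of genes), and the median change was 0.00492 against -0.01. Groups did not overlap in 1 member that was higher (9.76% of genes) and in 8 that were lower (8.81% of genes).

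The higher one was Sdhc, a membrane anchor of complex II. The lower ones were Ndufa12 (-0.62, described above with its conflicting probe sets), Ndufa4l2 (-0.35), Cox8c (-0.20), Ndufs8 (-0.19), Ndufb2 (-0.14), Atp5c1 (-0.13), Atp5d (-0.13) and Cox6c (-0.06). For Cox6c the mean of all its probe sets gave 0.07, the opposite sign. Ndufa4l2, a relative of Ndufa4 that is induced by low oxygen in many cells, read 5.81, 5.65 and 5.86 at 3 months and 5.48, 5.56 and 5.22 at 18 months in wild-type mice, a change of -0.35 (SE 0.12, adjusted p = 0.338). Ndufs8 read 11.11, 11.21 and 11.10 at 3 months and 10.94, 10.98 and 10.95 at 18 months, a change of -0.19 (SE 0.11, adjusted p = 0.572). Some of these changes depended on the processing. Over the alternative runs described below they came as near 0 as -0.06 for Ndufs8, -0.04 for Atp5c1 and 0.11 for Sdhc.

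In Q92 mice 71 of 84 members were higher at 18 than at 3 months (84.5%, against 51.9% of genes), with a median change of 0.10 against 0.00758. Complex medians were 0.11 for complex I, 0.15 for complex II, 0.16 for complex III, 0.08 for complex IV and 0.12 for the ATP synthase. Without Q92_18m_66 the median was 0.02 and 48 members were higher, and without Q92_18m_25 the median was 0.16. Groups did not overlap in 17 members that were higher with age (10.0% of genes) and in 2 that were lower (7.52% of genes).

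Uqcrc2 had the smallest adjusted p of these. It read 10.19, 10.27 and 10.22 at 3 months and 10.47, 10.44 and 10.70 at 18 months in Q92 mice, and all 3 old mice were above all 3 young mice. Its change was 0.31 (SE 0.09, adjusted p = 0.224), and 0.23 without Q92_18m_66. The changes with the largest size were less precise. Cox8b, the form of that complex IV subunit found in heart and skeletal muscle, read 5.25, 4.51 and 4.78 at 3 months and 5.35, 5.48 and 5.49 at 18 months, a change of 0.59 (SE 0.29, adjusted p = 0.507). Ndufs5, an accessory subunit of complex I, read 9.83, 10.05 and 10.36 at 3 months and 10.51, 10.55 and 10.72 at 18 months, a change of 0.51 (SE 0.21, adjusted p = 0.406), and the young mice differed among themselves by as much. A probe set that Ndufs5 shares with its pseudogene gave 0.17.

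Further members without overlap had fitted changes between these and 0, none past the threshold. In complex I they included Ndufb1 (0.26), Ndufb6 (0.26), Ndufa6 (0.22), Ndufc2 (0.21) and Ndufv3 (0.19). Others were Uqcrq of complex III (0.20), Cox6b1 of complex IV (0.19) and Atp5j2, subunit f of the ATP synthase (0.22). Without Q92_18m_66 these 8 changes were between 0.08 and 0.16. Over the mean of each gene's probe sets, Uqcrq was at 0.00146 and Atp5j2 at 0.12. Cox4i2, a form of subunit 4 linked to lung and to low oxygen, was 1 of the 2 lower members, at -0.20.

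Complex II, succinate dehydrogenase, has 4 subunits and also serves the citric acid cycle. The flavoprotein Sdha read 10.42, 10.49 and 10.71 in wild-type and 10.58, 10.60 and 10.54 in Q92 mice at 3 months, and 10.74, 10.58 and 10.55 in wild-type and 10.48, 10.58 and 10.75 in Q92 mice at 18 months. The iron-sulfur subunit Sdhb read 10.93, 10.73 and 10.81 in wild-type and 10.71, 10.70 and 10.73 in Q92 mice at 3 months, and 10.81, 10.72 and 10.66 in wild-type and 10.77, 10.66 and 11.07 in Q92 mice at 18 months. For both, the 2 genotypes overlapped at 18 months, and Q92_18m_66 held the highest value of all mice. The membrane anchors followed. Sdhc read 8.97, 8.79 and 8.73 in wild-type and 8.84, 9.10 and 8.91 in Q92 mice at 3 months, and 9.05, 9.03 and 9.06 in wild-type and 9.04, 9.19 and 9.23 in Q92 mice at 18 months. Sdhd read 9.23, 9.15 and 9.10 in wild-type and 8.94, 9.11 and 8.98 in Q92 mice at 3 months, and 9.03, 9.17 and 8.98 in wild-type and 9.11, 9.08 and 9.39 in Q92 mice at 18 months. Sdhc was the one of the 4 with higher values at 18 months in wild-type mice without overlap, by 0.22 (SE 0.10, adjusted p = 0.467), and its change in Q92 mice was of similar size, 0.20 (SE 0.10, adjusted p = 0.496). Its change in wild-type mice was as low as 0.11 in the alternative runs described below. The genotype differences at 18 months were -0.02 for Sdha, 0.11 for Sdhb, 0.10 for Sdhc and 0.13 for Sdhd, all with adjusted p of 0.825 or more. Without Q92_18m_66 they were -0.09, -0.01, 0.07 and 0.04. The 95% intervals over all mice left out a 1.5-fold difference in either direction, and ran at the widest from -0.24 for Sdha to 0.36 for Sdhd.

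Complex III passes electrons from ubiquinol to cytochrome c. Cyc1, its cytochrome c1, read 10.51, 10.67 and 10.68 in wild-type and 10.63, 10.51 and 10.52 in Q92 mice at 3 months, and 10.63, 10.61 and 10.69 in wild-type and 10.70, 10.48 and 10.97 in Q92 mice at 18 months. Uqcrfs1, the Rieske iron-sulfur protein, read 10.19, 10.01 and 10.26 in wild-type and 10.25, 10.21 and 10.21 in Q92 mice at 3 months, and 10.25, 10.22 and 10.20 in wild-type and 10.13, 10.22 and 10.27 in Q92 mice at 18 months. The groups overlapped in both genes, and the differences at 18 months were 0.07 (SE 0.11, adjusted p = 0.942) and -0.02 (SE 0.09, adjusted p = 0.986). Without Q92_18m_66 they were -0.05 and -0.05. Cycs, the soluble carrier cytochrome c itself, read 10.73, 11.30 and 10.93 in wild-type and 11.03, 11.18 and 11.02 in Q92 mice at 3 months, and 11.08, 10.92 and 11.22 in wild-type and 11.20, 10.96 and 11.25 in Q92 mice at 18 months. Its values in the wild-type mice of 3 months spread over a wider range than the distance between any 2 group means, and its difference at 18 months was 0.06 (SE 0.14, adjusted p = 0.962), and 0.00719 without Q92_18m_66.

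Complex IV, cytochrome c oxidase, has subunits with alternative forms in different tissues. The general forms had high signal. Cox4i1 read 12.27, 12.34 and 12.30 in wild-type and 12.33, 12.31 and 12.26 in Q92 mice at 3 months, and 12.34, 12.32 and 12.40 in wild-type and 12.37, 12.33 and 12.42 in Q92 mice at 18 months. Cox6a1 read 12.55, 12.72 and 12.71 in wild-type and 12.69, 12.71 and 12.64 in Q92 mice at 3 months, and 12.66, 12.73 and 12.75 in wild-type and 12.74, 12.76 and 12.76 in Q92 mice at 18 months, and Cox7a2 read 11.82, 12.003 and 11.89 in wild-type and 11.91, 11.85 and 11.88 in Q92 mice at 3 months, and 11.92, 11.87 and 12.03 in wild-type and 11.97, 11.89 and 12.10 in Q92 mice at 18 months. Their genotype differences at 18 months were 0.02 (SE 0.08, adjusted p = 0.979), 0.04 (SE 0.08, adjusted p = 0.959) and 0.04 (SE 0.09, adjusted p = 0.958), and without Q92_18m_66 -0.00107, 0.04 and -0.01. Cox6b1 read 11.91, 12.03 and 11.89 in wild-type and 11.82, 11.87 and 11.89 in Q92 mice at 3 months, and 11.93, 11.86 and 11.97 in wild-type and 11.99, 11.90 and 12.25 in Q92 mice at 18 months. Cox8a read 11.02, 10.73 and 10.88 in wild-type and 10.88, 10.77 and 10.83 in Q92 mice at 3 months, and 10.84, 10.88 and 10.80 in wild-type and 10.82, 10.89 and 11.06 in Q92 mice at 18 months. In these 2 genes Q92_18m_66 held the highest value of all mice and the other values of 18 months overlapped, and the differences were 0.13 (SE 0.10, adjusted p = 0.831) and 0.09 (SE 0.10, adjusted p = 0.907). Cox7a2l, a relative of Cox7a2 that helps to join complexes III and IV, read 10.21, 10.10 and 10.31 in wild-type and 9.97, 10.14 and 10.14 in Q92 mice at 3 months, and 10.11, 10.14 and 10.20 in wild-type and 10.14, 9.96 and 10.43 in Q92 mice at 18 months, with the groups overlapping at both ages.

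Other forms are known from muscle, testis or lung. Cox6a2, the heart and muscle form, read 6.30, 6.80 and 6.73 in wild-type and 6.80, 6.51 and 6.39 in Q92 mice at 3 months, and 6.85, 6.71 and 6.84 in wild-type and 6.68, 6.48 and 7.08 in Q92 mice at 18 months. Cox8b read 4.65, 4.56 and 4.81 in wild-type and 5.25, 4.51 and 4.78 in Q92 mice at 3 months, and 4.62, 5.87 and 4.47 in wild-type and 5.35, 5.48 and 5.49 in Q92 mice at 18 months. One wild-type mouse of 18 months held the highest Cox8b value of all, so the old Q92 and wild-type groups overlapped, with a difference of 0.45 (SE 0.29, adjusted p = 0.769). Cox7a1, the muscle form of that subunit, was among the dim genes and read 3.97, 3.88 and 3.72 in wild-type and 3.91, 3.88 and 3.56 in Q92 mice at 3 months, and 3.96, 4.17 and 3.91 in wild-type and 4.38, 3.90 and 4.78 in Q92 mice at 18 months. Its highest values were those of Q92_18m_66 and Q92_18m_11, and the genotype difference at 18 months was 0.34 (SE 0.18, adjusted p = 0.700), and 0.13 without Q92_18m_66. Cox6b2 and Cox8c are known from testis. Cox6b2 read 4.78, 4.72 and 4.89 in wild-type and 5.72, 4.50 and 4.86 in Q92 mice at 3 months, and 4.92, 5.47 and 4.71 in wild-type and 4.96, 5.06 and 5.50 in Q92 mice at 18 months, with scattered high values in 3 of the 4 groups. Among these were Q92_3m_439 and wt_18m_12, each with the highest Cox6b2 and Cox8b value of its group. In the same mice choroid plexus markers (7 of 8 measured, 1 above the 90th percentile and 2 at or below the 40th) had mean offsets of 2.06 and 1.89, and at most 0.62 in the other 10. Other mice had high values without high choroid plexus markers. Q92_18m_66, with Cox6b2 at 5.50 and Cox8b at 5.49, had an offset of -0.17 for those markers. Q92_18m_11, with Cox8b at 5.35, was at -0.38, and Q92_18m_25, with Cox8b at 5.48, at 0.62. The summed log2 signal of those markers ran from 35.7 to 54.0 in Q92 and from 35.3 to 36.9 in wild-type mice at 3 months, and from 36.9 to 43.9 and from 32.5 to 52.8 at 18 months. Their part in the values of Cox6b2 and Cox8b was not tested. Cox8c read 6.85, 7.05 and 6.99 in wild-type and 7.22, 7.04 and 6.83 in Q92 mice at 3 months, and 6.71, 6.85 and 6.74 in wild-type and 6.65, 6.81 and 6.92 in Q92 mice at 18 months. It was lower at 18 months in both genotypes, by -0.20 (SE 0.11, adjusted p = 0.567) in wild-type mice and -0.23 (SE 0.11, adjusted p = 0.504) in Q92 mice, neither of which passed. Cox4i2 read 4.20, 4.19 and 4.10 in wild-type and 4.25, 4.25 and 4.24 in Q92 mice at 3 months, and 4.05, 4.27 and 4.14 in wild-type and 4.07, 4.11 and 3.93 in Q92 mice at 18 months, a narrow range at low signal.

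Ndufa4 carries the name of complex I but is now counted as a subunit of complex IV, and it was kept where its symbol places it. It read 9.75, 9.92 and 9.76 in wild-type and 9.80, 9.88 and 9.89 in Q92 mice at 3 months, and 9.90, 10.09 and 9.76 in wild-type and 9.97, 9.93 and 9.97 in Q92 mice at 18 months. Ndufa4l2 read 5.81, 5.65 and 5.86 in wild-type and 5.73, 5.61 and 5.38 in Q92 mice at 3 months, and 5.48, 5.56 and 5.22 in wild-type and 5.45, 5.51 and 5.52 in Q92 mice at 18 months. Ndufa4 differed by 0.04 (SE 0.10, adjusted p = 0.962) between genotypes at 18 months and Ndufa4l2 by 0.08 (SE 0.12, adjusted p = 0.941), both less than the spread between mice.

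The ATP synthase has a membrane ring of c subunits, and 3 genes, Atp5g1, Atp5g2 and Atp5g3, encode the same mature c protein. Atp5g1 read 9.73, 9.76 and 9.82 in wild-type and 9.79, 9.82 and 9.76 in Q92 mice at 3 months, and 9.79, 9.89 and 9.70 in wild-type and 9.80, 9.96 and 10.28 in Q92 mice at 18 months. Atp5g2 read 10.11, 10.09 and 10.27 in wild-type and 10.09, 10.14 and 10.09 in Q92 mice at 3 months, and 10.21, 10.19 and 10.05 in wild-type and 10.14, 10.02 and 10.47 in Q92 mice at 18 months. Atp5g3 read 11.75, 11.80 and 11.71 in wild-type and 11.81, 11.74 and 11.79 in Q92 mice at 3 months, and 11.76, 11.72 and 11.73 in wild-type and 11.75, 11.69 and 11.88 in Q92 mice at 18 months. The values of Q92_18m_66 were the highest of 12 in all 3 genes, and apart from them the genotypes overlapped at 18 months. The differences at 18 months were 0.22 (SE 0.11, adjusted p = 0.685), 0.06 (SE 0.11, adjusted p = 0.953) and 0.04 (SE 0.08, adjusted p = 0.964). Without Q92_18m_66 they were 0.08, -0.07 and -0.02. For Atp5g1 a second, dimmer probe set gave -0.27 (SE 0.17, adjusted p = 0.747) at 18 months, the opposite sign.

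Htt, whose first exon carries the knock-in, read at its brightest probe set 7.68, 7.68 and 7.92 in wild-type and 8.08, 8.09 and 8.03 in Q92 mice at 3 months, and 7.75, 7.80 and 7.69 in wild-type and 7.82, 8.003 and 7.72 in Q92 mice at 18 months. An array signal does not show repeat length, so these values do not check the genotype labels. Every Q92 mouse lay above every wild-type mouse at 3 months, and the groups overlapped at 18 months. Other probe sets differed. The second brightest read 7.70, 7.46 and 7.53 in wild-type and 7.29, 7.45 and 7.17 in Q92 mice at 18 months. The third read 6.955, 6.79 and 6.82 in wild-type and 6.70, 6.77 and 6.67 in Q92 mice. In both, every Q92 mouse lay below every wild-type mouse at that age. In the dimmest the groups overlapped. The cause was not tested.

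The other gene lists gave no call either. In limma, 0 genes of these lists passed in any of the 5 comparisons. At an unadjusted p under 0.05, 4 assembly factors, 3 mitochondrial ribosomal proteins, 5 proteasome subunits and 2 of the ADP, phosphate and phosphocreatine group were higher in Q92 mice at 18 months, where 3.07% of all genes were. At the same p, 2 of that last group, 1 citric acid cycle enzyme and 1 biogenesis regulator were lower, as were 4.95% of all genes. At 18 months 36 of 48 assembly factors, 62 of 76 mitochondrial ribosomal proteins and 33 of 37 proteasome subunits were higher in Q92 mice, with medians of 0.07, 0.08 and 0.13, where 49.6% of all genes were higher. Without Q92_18m_66 the counts were 26, 41 and 25, and the medians 0.00313, 0.00872 and 0.07. At 3 months 8 of the 48 assembly factors, 15 of the 76 ribosomal proteins and 9 of the 37 proteasome subunits were higher, against 42.6% of all genes. Citric acid cycle enzymes split at 18 months, with 9 of 15 higher, as did glycolysis (8 of 13), the ADP, phosphate and phosphocreatine group (5 of 9) and biogenesis regulators (7 of 14).

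The largest differences at 18 months in these lists did not pass. They were 0.33 for Ndufaf6 and 0.29 for Uqcc3, which assemble complexes I and III, and 0.34 for Mrpl33 and 0.26 for Mrps35 of the mitochondrial ribosome. Suclg2, a subunit of succinyl-CoA ligase, was at -0.25 and Idh3a, of isocitrate dehydrogenase, at 0.18. Among shuttles, adenylate kinase Ak3 was at -0.33 and brain creatine kinase Ckb at -0.29, and among regulators the coactivator Ppargc1b was at -0.32 and Gabpb1, a subunit of GABP, at -0.26. In glycolysis Ldha was at 0.18 and Pgam1 at 0.17, and in the proteasome Psmd13 was at 0.33 and Psmd1 at 0.27. The smallest adjusted p of these was 0.278, for Mrpl33, whose difference at 3 months was 0.35 in the same direction. The coactivator Ppargc1a, a regulator of mitochondrial biogenesis, had the largest difference of the regulators at 3 months, at -0.36 (SE 0.15, adjusted p = 1.00). Gabpa, next in size in that list, went the other way at 3 months, at 0.21 (SE 0.15).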

How the data were processed

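Striatal RNA was hybridised to 12 Affymetrix Mouse Genome 430 2.0 arrays. The authors deposited 1 log2 signal for each probe set. RMA and the affy package, without versions, are named in the submitters' processing notes. RMA sets the probe intensities of all arrays to 1 distribution before they are summarised by probe set, so values are relative to other genes of the array. The deposited values still differed in spread, with an interquartile range from 3.31 (Q92_3m_439) to 3.58 (Q92_18m_11). It is not stated whether the 12 arrays were normalised together. Values (2.03 to 13.8) were used as deposited. Arrays give no read depth, and their number limits the precision.

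One model with a mean for each of 4 groups was fitted to 12 arrays with limma 3.58.1 in R 4.3.3 (8 residual and 4.50 prior degrees of freedom). P-values of 5 contrasts were adjusted by Benjamini-Hochberg over 45037 probe sets, leaving out 64 control probe sets. The deposited probe table named genes, and all 84 member identifiers were found in RefSeq. Each gene was represented by the probe set of 1 gene alone with the highest mean. The code was tested on simulated data.

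The named members were, per contrast between groups, those that passed and up to 12 with the largest difference among members whose groups did not overlap, the forms of subunits with several genes, the 4 Sdh genes and Htt. Cyc1, Uqcrfs1, Cycs, Ndufv1 and the members at an unadjusted p under 0.05 in the change with age were named after their values were seen. The promoter words were chosen after the data were seen, and a longer NRF1 word tried first matched fewer promoters. In each related list the 2 members with the largest difference were named. The members and lists were chosen with earlier results of these data known.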

Additional observations from a re-analysis of the deposited data

How the results depend on the processing

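No paired analysis was possible because the animal numbers are not shared between groups. In each of the 5 comparisons, 0 members passed under each of these alternative runs: quantile normalisation, array medians made equal, removal of probe sets up to the 40th percentile, a trended robust prior, sex in the model, weighted arrays, only the arrays compared, the mean of all probe sets, adjustment over 1 probe set per gene, each array left out in turn, and both least correlated arrays left out. A fit to only the arrays compared was not made for the change with age, and the percentile filter removed Ndufb4, Cox4i2, Cox7a1 and Cox7b2. A block for age in days was run for the genotype comparisons only, and at 3 months 0 members passed with it. At 18 months only the mice of 596 days inform it, Q92_18m_11 against wt_18m_12 and wt_18m_17. It rests there on 1 Q92 mouse, so no count is given for that age or for the change with age. With an array left out, the median member difference ran from -0.0656 to -0.0160 at 3 months (lowest without wt_3m_436, highest without wt_3m_438), from 0.0136 (without Q92_18m_66) to 0.17 for the change with age, from -0.01 to 0.11 at 18 months, and from -0.02 to 0.01 in wild-type and 0.02 to 0.16 in Q92 mice with age. Without both least correlated arrays the median for the change with age was 0.0236. The mean of all probe sets turned the change with age in wild-type mice to 0.00672 for Ndufa12 and 0.0705 for Cox6c. The causes were not tested. Without Q92_18m_66 the genotype difference at 18 months fell below 0 for further members, among them Cyc1 (-0.05), Atp5g2 (-0.07) and Atp5g3 (-0.02).

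The 3 mice per group limit the precision, p-values weigh a difference against the spread between these mice, and probe sets near background respond little to change.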

Other observations

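Probe sets shared by several genes gave values for subunits without one of their own. The probe set of Ndufa11 and Ndufa11b (1429708_at), for a membrane subunit of complex I, read 10.19, 10.07 and 10.15 in wild-type and 10.08, 9.95 and 10.01 in Q92 mice at 3 months, and 10.02, 10.14 and 9.99 in wild-type and 9.92, 9.88 and 10.46 in Q92 mice at 18 months. That of Ndufs6 and Ndufs6b (1433603_at) read 9.64, 9.50 and 9.39 in wild-type and 9.40, 9.35 and 9.43 in Q92 mice at 3 months, and 9.35, 9.29 and 9.29 in wild-type and 9.38, 9.36 and 9.58 in Q92 mice at 18 months. For Ndufa11 the highest value was again that of Q92_18m_66, and for Ndufs6 the highest value was that of a young wild-type mouse. The differences at 18 months were 0.04 (SE 0.13, limma's adjusted p = 0.978) and 0.13 (SE 0.09, limma's adjusted p = 0.810). Ndufb4 has a dim probe set of its own, and a brighter one shared with Ndufb4b and Ndufb4c (1428075_at) read 10.39, 10.48 and 10.50 in wild-type and 10.42, 10.48 and 10.44 in Q92 mice at 3 months, and 10.53, 10.50 and 10.58 in wild-type and 10.48, 10.47 and 10.65 in Q92 mice at 18 months. The groups overlapped at both ages.

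Agreement between probe sets of 1 gene differed by comparison. Of 46 members with at least 2 probe sets above the 40th percentile, the brightest pair had the same sign in 37 at 18 months, 31 at 3 months, 26 for wild-type mice with age and 41 for Q92 mice with age. Of the 174 probe sets of members, 0 passed limma's adjusted p of 0.05 in any comparison.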
